A study of Mus musculus with 18 samples.

Results

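Transcript levels of 8 transcription factor genes that specify intestinal epithelium were followed in laser-microdissected (LMD) mouse colonic epithelium by RNA-Seq. The set was Cdx1, Cdx2, Hnf4a, Hnf4g, Gata6, Klf5, Elf3 and Onecut2, taken by gene symbol from the 55453 gene names in the count tables, and all 8 passed the filter on low counts. The 18 libraries came from female Swiss Webster mice, an outbred stock, and fell into 4 groups. Polypoid dysplasia was taken from mice on chow with 8 mg/kg folic acid (8P, n = 5) or 0 mg/kg (0P, n = 4). Non-dysplastic epithelium was taken on the same diets (8ND, n = 5, and 0ND, n = 4). Mice of every group had been given the colon carcinogen azoxymethane (AOM) at 7 weeks of age and 4 cycles of dextran sulfate sodium (DSS), an irritant of the colonic lining that causes colitis, from 9 weeks. A cycle was 7 days of 2% DSS and 14 days of plain water. All ate chow with 2 mg/kg folic acid until they were moved to the 0 or 8 mg/kg diet at 11 weeks for 16 weeks, and colons were collected at 27 weeks. Colon without AOM and DSS was not analysed here, so ND stands for colitic epithelium free of dysplasia. Nothing states that the libraries of a group came from separate mice, so p-values measure the spread between these libraries.

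CDX1 and CDX2 are homeodomain proteins related to fly caudal. CDX2 sets and keeps the identity of the intestinal lining, and in mice its loss from the gut endoderm gives tissue with stomach or squamous features. HNF4A and HNF4G are nuclear receptors that drive genes of absorptive cells, including those of the brush border and of lipid handling. GATA6 is a zinc finger factor of endoderm, KLF5 a Krüppel-like factor of dividing crypt cells, and ELF3 an ETS factor of epithelial differentiation. ONECUT2 carries a cut domain and a homeodomain and is known in the mouse from the small intestine, liver, pancreas and nervous system.

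Promoter sequence is shown for Cdx2, Hnf4a and Elf3, the 3 of the 8 genes for which it could be printed, because some of these factors are known to bind one another's genes in gut epithelium. Cdx2 and Hnf4a fell in dysplasia, and Elf3 did not pass the test. Each run is 300 bases around a start site in RefSeq (GRCm38.p6), 5′ to 3′ on the gene's strand. The letters searched for on both strands, and shown in capitals, were TTTAT and TTTAC for CDX, next ATCAAT and ATCGAT for ONECUT proteins, next AGATAA and TGATAA for factors of the GATA family, and CAAAGT and CAAGGT for the HNF4 receptor pair. These matches did not overlap one another here.
Cdx2, chr5:147307200-147307499, minus strand: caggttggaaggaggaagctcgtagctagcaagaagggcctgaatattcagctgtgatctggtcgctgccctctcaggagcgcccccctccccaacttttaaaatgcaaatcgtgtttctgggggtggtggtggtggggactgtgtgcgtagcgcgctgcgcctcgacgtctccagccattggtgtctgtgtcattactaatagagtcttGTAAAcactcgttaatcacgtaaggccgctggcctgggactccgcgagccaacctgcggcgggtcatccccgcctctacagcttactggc
Hnf4a upstream promoter, chr2:163506607-163506906, plus strand: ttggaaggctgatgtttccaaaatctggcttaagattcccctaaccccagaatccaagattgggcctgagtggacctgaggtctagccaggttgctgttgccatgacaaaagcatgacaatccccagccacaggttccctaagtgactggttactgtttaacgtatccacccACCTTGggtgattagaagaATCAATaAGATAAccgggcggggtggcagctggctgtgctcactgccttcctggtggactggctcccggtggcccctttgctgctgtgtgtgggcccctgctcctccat
Hnf4a downstream promoter, chr2:163546905-163547204, plus strand: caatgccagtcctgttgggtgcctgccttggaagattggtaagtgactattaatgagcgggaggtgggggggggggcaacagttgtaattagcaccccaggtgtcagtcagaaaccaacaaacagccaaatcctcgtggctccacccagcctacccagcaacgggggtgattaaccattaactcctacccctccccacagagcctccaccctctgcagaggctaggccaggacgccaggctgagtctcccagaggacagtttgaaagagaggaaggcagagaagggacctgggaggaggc
Elf3, chr1:135258423-135258722, minus strand: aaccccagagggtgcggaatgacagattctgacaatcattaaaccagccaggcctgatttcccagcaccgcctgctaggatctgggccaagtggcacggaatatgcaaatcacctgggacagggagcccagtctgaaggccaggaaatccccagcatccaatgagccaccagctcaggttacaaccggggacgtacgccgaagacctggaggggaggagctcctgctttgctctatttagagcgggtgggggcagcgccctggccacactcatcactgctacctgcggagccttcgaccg

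The upstream Hnf4a promoter held an HNF4 match from -78 to -73, an ONECUT match from -59 to -54 and a GATA match from -52 to -47, counted from the start site. Such matches occurred in 25.3%, 8.4% and 18.6% of 32851 mouse promoters of the same length. The Cdx2 promoter held a single CDX match from -40 to -36, which 54.7% of promoters also had. None of these 4 motifs was found in the downstream Hnf4a promoter or in that of Elf3. A further pair of motifs, CACCC for KLF proteins and either CGGAA or AGGAAG for ETS proteins, was searched in the same way and is not capitalised, being in 57.5% and 55% of all promoters. Each of the 4 promoters shown held both, and in the upstream Hnf4a promoter a KLF match from -73 to -69 shared its first base with the HNF4 match. A match describes letters in the window, not a bound site.

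In mm10 the genes lie on 6 chromosomes, and each position is that of the whole annotated gene in GENCODE M21. The study's methods name RefSeq as the source of the counted genes, so the gene models counted may differ from these, which also give the overlaps and exon lengths used here. Cdx1 lies on chromosome 18 from 61018862 to 61036199, Gata6 from 11052064 to 11085635 and Onecut2 from 64340020 to 64400987 of the same chromosome. Cdx2 is on chromosome 5 from 147300805 to 147307270, Hnf4a on chromosome 2 from 163506808 to 163572910 and Hnf4g on chromosome 3 from 3508030 to 3658052. Klf5 is on chromosome 14 from 99298691 to 99315036 and Elf3 on chromosome 1 from 135253575 to 135258568. Cdx1, Cdx2 and Elf3 are on the minus strand. An antisense transcript, 1010001N08Rik, shares 93 exon bases with Gata6 and had 9.79% as many reads over all libraries. Gm37000, a pseudogene inside a Hnf4g intron, had 17.3% as many reads as Hnf4g. Gm26642, antisense to Elf3 with 162 exon bases in common, had 0.478% as many reads as Elf3. The strand setting of the counting is not given in the sources used here. How reads on the exon bases that Gata6 or Elf3 share with antisense partners were assigned is therefore not known.

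Whether the cells kept their intestinal program in dysplasia was asked by comparing P with ND on each diet. In 0P vs 0ND 5 of the 8 genes fell and 1 rose at an adjusted p below 0.05 in edgeR's quasi-likelihood test, against 31.6% of 20787 tested genes called in either direction (15.7% lower and 15.9% higher). In 8P vs 8ND 4 fell and 1 rose, against 28.2% of all tested genes (14.3% lower and 13.9% higher). The libraries of P and ND did not overlap for 6 genes on 0 mg/kg and 5 on 8 mg/kg, against 32.3% and 17.2% of all tested genes. Cdx1, Cdx2, Hnf4a and Hnf4g fell and Onecut2 rose on both diets, while Gata6 fell on 0 mg/kg. Klf5 and Elf3 did not pass the test on either diet. The median log2 fold change of the 8 genes was -0.79 in 0P vs 0ND and -0.51 in 8P vs 8ND, beside -0.03 and 0.00 for all tested genes. Diet was compared within each tissue. None of the 8 passed in 8ND vs 0ND (0 of 8, with 0.0481% of all genes called), in 8P vs 0P (0 of 8, with 0%) or in the interaction of diet with dysplasia (0 of 8, with 0%), and DESeq2 called 0 of the 8 as well. At an unadjusted p below 0.05 each of these 3 tests had 1 of the 8 genes, beside 2059, 2093 and 2163 of all genes.

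**Figure D1:**
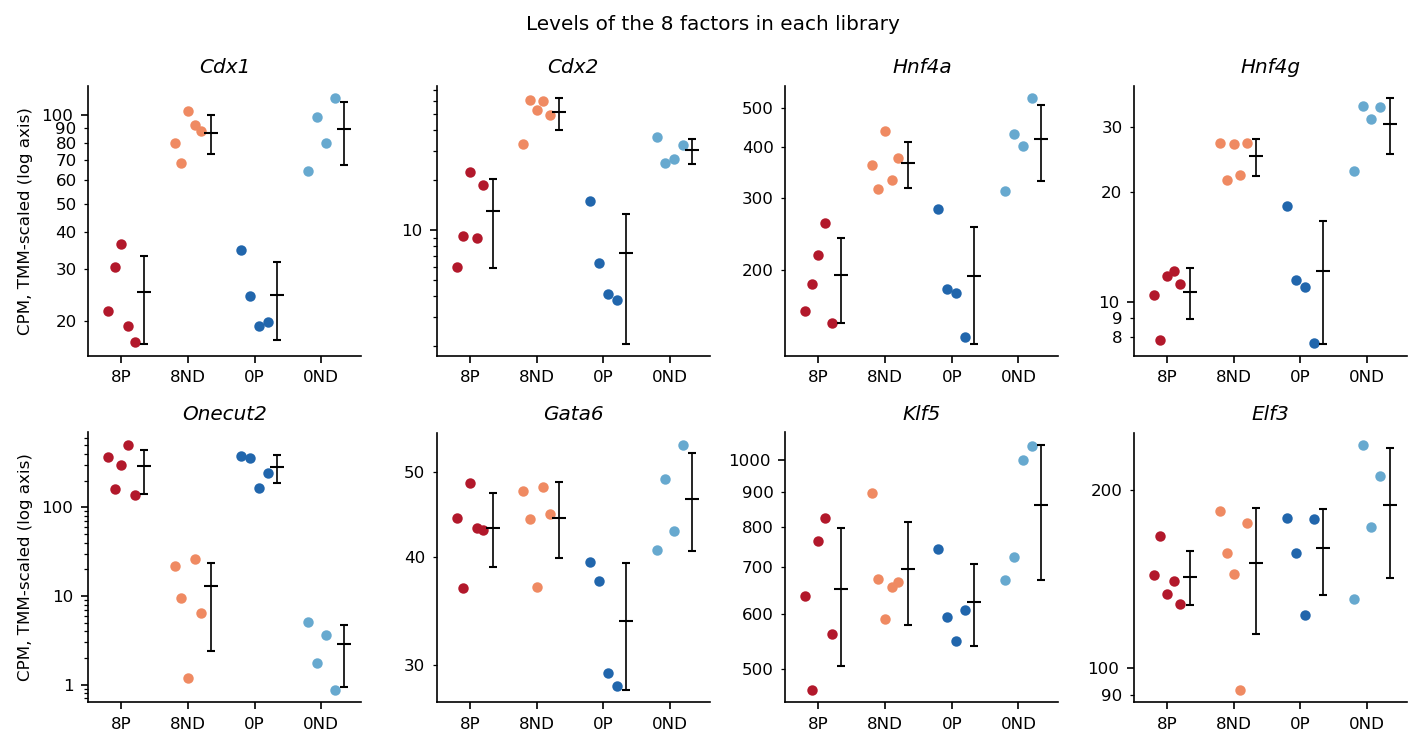
Level of each of the 8 genes in every library, in TMM-scaled CPM on a log axis, by group. Points are libraries and the black marks give mean ± SD. Cdx1, Cdx2, Hnf4a and Hnf4g sit lower in P than in ND on each diet, and Onecut2 sits higher, with a highest ND library at 26.4 CPM and a lowest P library at 136 CPM.

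Levels are given in TMM-scaled CPM, reads relative to the total counted after scaling for the composition of the library, with libraries in the order of their replicate numbers. Cdx1 is the paralog of Cdx2 that is made mainly in crypts. It had 21.7, 30.5, 36.6, 19.3 and 17.1 CPM in 8P, against 79.9, 68.6, 103, 92.1 and 88.4 CPM in 8ND. On chow without folic acid it had 34.8, 24.3, 19.2 and 19.8 CPM in 0P, against 64.3, 98.4, 80.3 and 114 CPM in 0ND. Every P library lay below every ND library. The log2 fold change was -1.79 ± 0.22 (SE) in 8P vs 8ND (adjusted p = 1.47e-05) and -1.86 ± 0.24 in 0P vs 0ND (adjusted p = 1.68e-05), or 3.45-fold and 3.62-fold lower.

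Cdx2 fell by a similar factor from a lower level. Its values were 5.94, 9.15, 22.5, 9.01 and 18.7 CPM in 8P, against 33.2, 60.6, 52.8, 59.8 and 49.3 CPM in 8ND. In 0P they were 14.97, 6.31, 4.12 and 3.80 CPM, against 36.4, 25.4, 26.8 and 32.7 CPM in 0ND. The groups did not overlap on either diet. Cdx2 was 3.92-fold lower in 8P vs 8ND (log2 fold change -1.97 ± 0.38, adjusted p = 0.000912) and 4.15-fold lower in 0P vs 0ND (-2.05 ± 0.43, adjusted p = 0.0015). The spread among P libraries was wide, from 5.94 to 22.5 CPM in 8P and from 3.80 to 14.97 CPM in 0P. Without 0P 1, the highest of 0P, the log2 fold change in 0P vs 0ND was -2.67 (adjusted p = 7.14e-05). Over all fits without single libraries it ran from -2.67 to -1.82 (adjusted p 7.14e-05 to 0.00711).

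By mean, Cdx2 was higher on 8 mg/kg than on 0 mg/kg in both tissues, without passing the test. Its mean was 51.2 ± 11.1 CPM in 8ND and 30.3 ± 5.15 CPM in 0ND (SD, n = 5 and 4). It was 13.1 ± 7.14 CPM in 8P and 7.30 ± 5.23 CPM in 0P. The log2 fold change was 0.75 ± 0.39 in 8ND vs 0ND (95% interval -0.07 to 1.57, adjusted p = 0.57) and 0.83 ± 0.41 in 8P vs 0P (-0.03 to 1.70, adjusted p = 0.503). Without single libraries the second ran from 0.54 to 1.45 (adjusted p 0.205 to 0.855), with 1.45 without 0P 1. The groups overlapped in both comparisons. For Cdx1 the intervals were -0.51 to 0.42 and -0.45 to 0.50.

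The ratio of Cdx1 to Cdx2 within a library does not depend on library scaling. On the log2 scale of counts it was 0.77 ± 0.41 in 8ND and 1.54 ± 0.50 in 0ND (exact two-sided permutation p = 0.0556). It was 1.05 ± 0.81 in 8P and 1.93 ± 0.51 in 0P (exact permutation p = 0.103). For P vs ND the exact permutation p was 0.516 on 8 mg/kg and 0.314 on 0 mg/kg. None of the 8 ratio tests passed after adjustment (0 of 8, smallest adjusted p = 0.222), and 0 of 8 were below 0.05 before it. Without library 0ND 1, the 8ND vs 0ND difference was -1.002 in place of -0.763, at an exact permutation p of 0.0179. This is the smallest p that the remaining libraries allow. It was the only 1 of 9 fits without single libraries below 0.05 (exact permutation p up to 0.143).

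Hnf4a, the more abundant of the nuclear receptor pair, had 158, 184, 218, 261 and 148 CPM in 8P, against 362, 316, 438, 332 and 377 CPM in 8ND. It had 281, 179, 176 and 137 CPM in 0P, against 313, 432, 403 and 528 CPM in 0ND. The lowest ND library thus lay above the highest P library on each diet. Hnf4a fell by 0.91 ± 0.19 on the log2 scale in 8P vs 8ND (adjusted p = 0.00126) and by 1.12 ± 0.21 in 0P vs 0ND (adjusted p = 0.000463).

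Hnf4g, which overlaps with Hnf4a in function in mouse intestine, was far less abundant. It had 10.4, 7.84, 11.8, 12.1 and 11.1 CPM in 8P, against 27.1, 21.5, 27.1, 22.2 and 27.2 CPM in 8ND. In 0P it had 18.3, 11.5, 11.0 and 7.71 CPM, against 22.8, 34.2, 31.6 and 34 CPM in 0ND. Its groups were apart on both diets, most narrowly at 18.3 CPM in 0P 1 and 22.8 CPM in 0ND 1. Hnf4g fell by 1.23 ± 0.19 on the log2 scale in 8P vs 8ND (adjusted p = 0.00011) and by 1.34 ± 0.21 in 0P vs 0ND (adjusted p = 9.68e-05).

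The log2 ratio of Hnf4a to Hnf4g was 4.16 ± 0.34 in 8P and 3.86 ± 0.11 in 8ND (exact permutation p = 0.111), and 4.01 ± 0.09 in 0P and 3.76 ± 0.14 in 0ND (exact permutation p = 0.0571, with 0.0286 the smallest possible). Neither difference passed after adjustment. Without 8P 5 the first was 0.41 in place of 0.30 at an exact permutation p of 0.0159, the only 1 of 10 such fits below 0.05. Without 0ND 4 the second was 0.31 in place of 0.24 at 0.0286, the smallest p that the remaining libraries allow. Of 8 such fits it was the only 1 below 0.05.

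**Figure D2:**
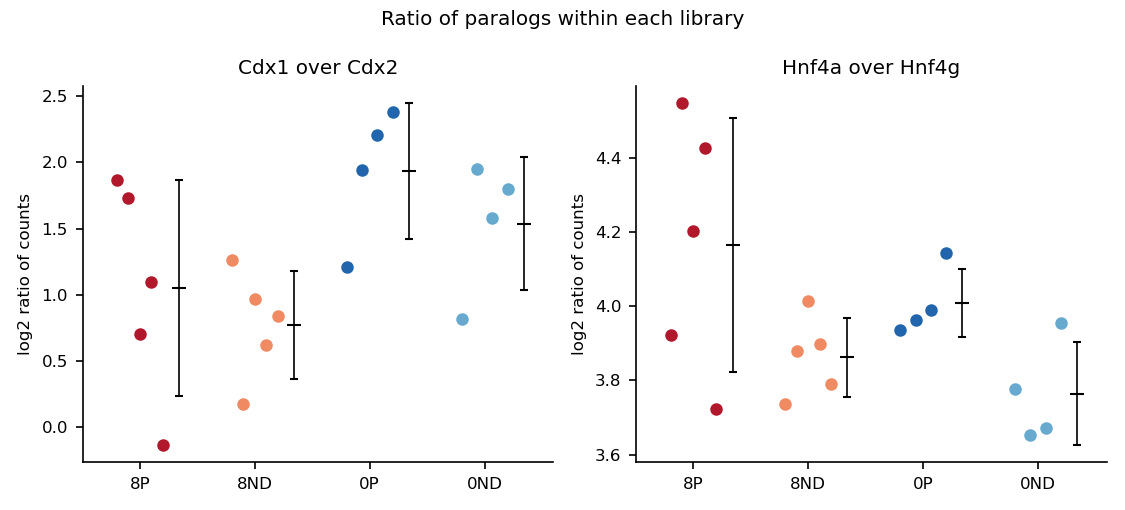
Log2 ratio of counts of Cdx1 over Cdx2 (left) and of Hnf4a over Hnf4g (right) in each library, by group. Points are libraries and black marks give mean ± SD. The Cdx1 over Cdx2 ratio averaged 0.77 in 8ND and 1.54 in 0ND, with overlap of the groups, and the axes do not start at 0.

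Onecut2 changed most of the 8, and in the opposite direction to the other genes called. It had 369, 160, 304, 508 and 136 CPM in 8P, against 21.6, 9.51, 1.18, 26.4 and 6.37 CPM in 8ND. In 0P it had 376, 362, 167 and 244 CPM, against 5.10, 1.76, 3.67 and 0.866 CPM in 0ND. All P libraries were above all ND libraries. These levels rest on 1218 to 7225 reads per library in P and 8 to 156 in ND. Onecut2 was 24.1-fold higher in 8P vs 8ND (log2 fold change 4.59 ± 0.65, adjusted p = 0.000109) and 94.0-fold higher in 0P vs 0ND (6.55 ± 0.81, adjusted p = 2.49e-05). By log2 fold change it ranked 6 of 20787 tested genes in 8P vs 8ND and 33 in 0P vs 0ND, counted from the highest.

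In non-dysplastic epithelium Onecut2 averaged 13.01 ± 10.6 CPM in 8ND and 2.85 ± 1.90 CPM in 0ND (SD, n = 5 and 4). Its log2 fold change in 8ND vs 0ND was 2.01 ± 0.74, with an unadjusted p of 0.0154 and an adjusted p of 0.347 in edgeR. Library 8ND 3, at 1.18 CPM, lay within the 0ND range, and the other 4 lay above it. In dysplasia the means were 295 ± 154 CPM in 8P and 287 ± 99.6 CPM in 0P, with a 95% interval of the log2 difference from -1.18 to 1.26. The interaction was -1.96 ± 0.93 (adjusted p = 0.482), so a difference between diets in the size of the rise was not established.

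Gata6 fell only on chow without folic acid by this threshold. It had 44.3, 36.8, 48.6, 43.1 and 42.9 CPM in 8P, against 47.6, 44.2, 36.9, 48.1 and 44.8 CPM in 8ND. It had 39.4, 37.5, 29.4 and 28.4 CPM in 0P, against 40.7, 49.2, 42.8 and 53.8 CPM in 0ND. The groups overlapped on 8 mg/kg and were apart by 1 narrow gap on 0 mg/kg, where Gata6 fell by 0.47 ± 0.13 on the log2 scale (adjusted p = 0.0109). In 8P vs 8ND the difference was -0.04 ± 0.12 (95% interval -0.28 to 0.21, adjusted p = 0.854). The interaction did not pass (0.43 ± 0.18, adjusted p = 0.435), nor did 8P vs 0P (0.36 ± 0.13, adjusted p = 0.465). Without library 0P 3, the 0P vs 0ND call was lost (adjusted p = 0.057).

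Klf5 was the most abundant of the 8 per exon length in all groups. It had 637, 465, 765, 826 and 560 CPM in 8P, against 896, 672, 589, 655 and 667 CPM in 8ND. In 0P it had 745, 593, 549 and 607 CPM, against 672, 724, 1001 and 1047 CPM in 0ND. P and ND overlapped on both diets. The log2 difference was -0.10 ± 0.16 in 8P vs 8ND (95% interval -0.44 to 0.24, adjusted p = 0.701) and -0.47 ± 0.18 in 0P vs 0ND (-0.85 to -0.09, adjusted p = 0.0573). The second crossed the threshold with a minimum count of 50 (adjusted p = 0.0399), with a stromal marker covariate (0.0145), and without 0ND 1 (0.0301), 0ND 2 (0.0433) or 0P 1 (0.0342).

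Elf3 had 144, 167, 133, 140 and 128 CPM in 8P, against 184, 157, 144, 91.6 and 175 CPM in 8ND. It had 179, 157, 123 and 179 CPM in 0P, against 131, 238, 173 and 211 CPM in 0ND. All groups overlapped. The log2 difference was -0.08 ± 0.17 in 8P vs 8ND (95% interval -0.44 to 0.28) and -0.24 ± 0.19 in 0P vs 0ND (-0.64 to 0.16), with adjusted p of 0.772 and 0.382. These intervals leave out falls of the size measured for Cdx1 and Cdx2.

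**Figure D3:**
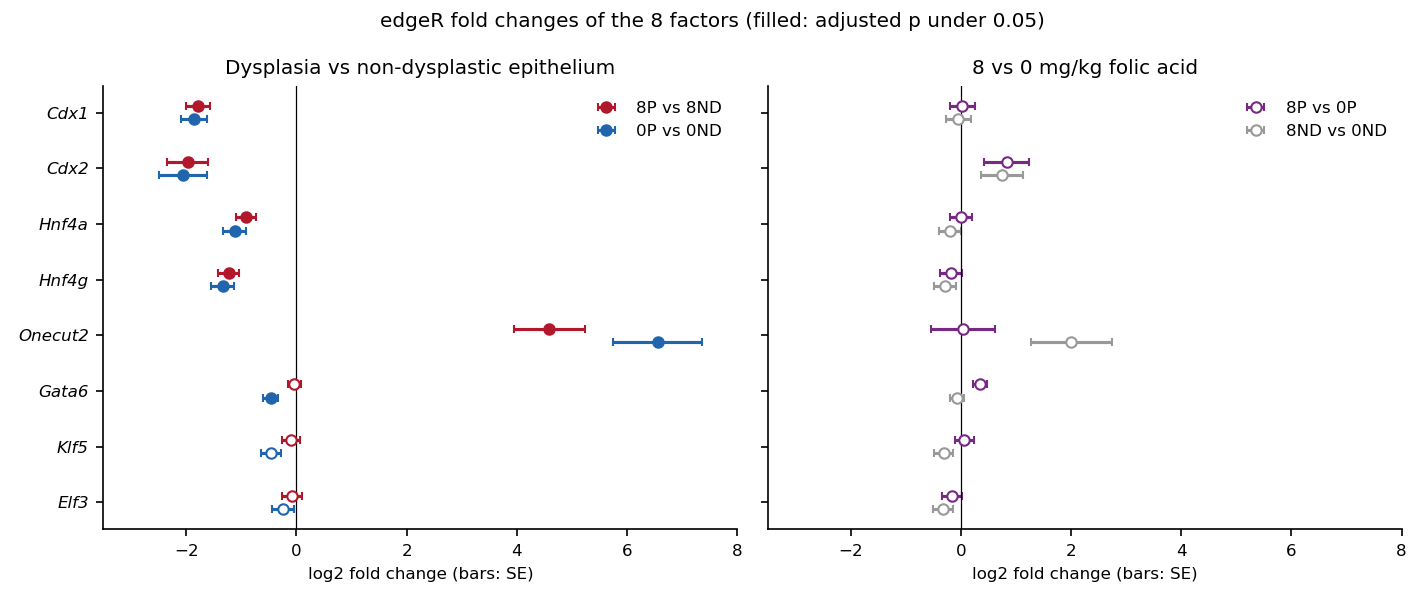
Log2 fold changes of the 8 genes from edgeR with their SE, for P vs ND on each diet (left) and for 8 vs 0 mg/kg folic acid within P and within ND (right). Filled points passed an adjusted p of 0.05. Filled points stand at the 4 CDX and HNF4 genes and Onecut2 on both diets and at Gata6 on 0 mg/kg, and the right panel has no filled point.

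Ordered by mean CPM per kb of exon, Klf5 came first in all 4 groups, at 125 in 8P, 134 in 8ND, 120 in 0P and 166 in 0ND. It lay above the next gene in every library. In ND the order went on with Hnf4a, Elf3, Cdx1, Cdx2, Hnf4g, Gata6 and Onecut2. Hnf4a and Elf3 overlapped there (75.6 ± 9.75 and 67.8 ± 16.4 CPM per kb in 8ND, 86.8 ± 18.4 and 85.0 ± 21.1 in 0ND), as did Elf3 and Cdx1 in both ND groups and Cdx2 and Hnf4g in 0ND. Onecut2 was last, at 0.801 ± 0.653 CPM per kb in 8ND and 0.176 ± 0.117 in 0ND. In P it stood 4th, at 18.2 ± 9.47 CPM per kb in 8P and 17.7 ± 6.13 in 0P. Its range overlapped there with that of Cdx1 and, in 8P, with that of Hnf4a. Cdx1 stood next, at 14.3 ± 4.71 and 14.0 ± 4.11. Elf3 stood above Hnf4a within every P library, although their ranges overlapped in 0P, with 64.3 ± 6.75 and 40.1 ± 9.57 CPM per kb in 8P and 71.9 ± 11.96 and 40.0 ± 12.8 in 0P. Cdx2, Hnf4g and Gata6 filled the last places in P, with overlap between neighbours.

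The cut tissue was read from marker genes. All 9 epithelial markers had reads in every group. In 8P vs 8ND 6 of them fell and 1 rose, and in 0P vs 0ND 3 fell and 1 rose, against 28.2% and 31.6% of all tested genes called. Tspan8, a tetraspanin, fell by 1.18 and 1.02 on the log2 scale, Krt18 was the one that rose, and Epcam and Cdh1 did not pass the test on either diet. Cdh17 and Vil1, which fell on both diets, are also counted among the CDX2 targets below, so these lists are not independent. The summed level of the 9 was 2842 to 3529 CPM in 8P, 3152 to 4451 in 8ND, 3195 to 4341 in 0P and 3498 to 4547 in 0ND. All 6 smooth muscle markers fell in P on both diets, with sums of 256 to 597 CPM in 8P, 1004 to 1725 in 8ND, 357 to 708 in 0P and 1000 to 2537 in 0ND. The 7 fibroblast markers summed to 1072 to 2502 CPM in 8P, 1304 to 1485 in 8ND, 1630 to 2201 in 0P and 1035 to 1103 in 0ND. Singly, 1 of these 7 rose and 0 fell in 8P vs 8ND, and 5 rose and 1 fell in 0P vs 0ND. The 7 immune cell markers summed to 587 to 1275 CPM in 8P, 1490 to 2754 in 8ND, 538 to 755 in 0P and 831 to 1789 in 0ND. Jchain alone averaged 450.5 CPM in 8P, 1492 in 8ND, 278.8 in 0P and 867 in 0ND after TMM scaling. Of the 7, only Jchain fell on either diet, and only Itgam rose, in 0P vs 0ND (1.31 ± 0.32, adjusted p = 0.00366). Endothelial and mesothelial markers summed to at most 177 and 9.63 CPM in any library. No defining marker of the epithelial, smooth muscle, fibroblast or immune lists was at 0 in all libraries of a group. In bulk samples, fewer cells of a type and less RNA per cell cannot be told apart. With the summed fibroblast, smooth muscle and endothelial level as a covariate, the log2 fold change of Cdx2 was -2.09 in 8P vs 8ND and -2.08 in 0P vs 0ND, and that of Onecut2 was 4.05 and 6.50, and each call of the 8 genes in P vs ND was kept. By the mean of the sums, fibroblast markers were higher and smooth muscle markers lower in P than in ND on both diets, though not every fibroblast marker was. Their changes partly offset each other in the covariate, so it could not separate them. The part of each stromal tissue alone, and of the immune cell markers, in these results was not tested.

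Genes downstream of these factors were read from lists of known targets, which share members. Of 15 tested genes known as CDX2 targets, 12 fell in 8P vs 8ND and 11 in 0P vs 0ND, with 0 higher. Of all tested genes, 14.3% fell in 8P vs 8ND and 15.7% in 0P vs 0ND. The list median was -1.14 and -1.04 on the log2 scale. Slc26a3, the chloride and bicarbonate exchanger of the colonic surface, averaged 17.8 ± 9.96 CPM in 8P and 283.5 ± 80.8 CPM in 8ND, and 42.9 ± 31.4 CPM in 0P and 828 ± 392 CPM in 0ND. It fell by 3.99 ± 0.54 and 4.27 ± 0.60 on the log2 scale (adjusted p = 7.15e-05 and 6.98e-05). Without single libraries the second ran from -4.87 (without 0P 1) to -3.95. Klf4, a Krüppel-like factor of surface cells, fell by 2.14 ± 0.18 in 8P vs 8ND and by 2.22 ± 0.20 in 0P vs 0ND, and had the smallest p of the list on both diets. Gucy2c, the guanylin receptor, fell by 1.16 ± 0.18 and 1.28 ± 0.20. Abcb1a, a drug efflux pump, fell by 1.43 ± 0.26 in 8P vs 8ND and by 2.32 ± 0.29 in 0P vs 0ND. Lgals4, an epithelial galectin, fell by 1.12 ± 0.20 in 8P vs 8ND and by 0.90 ± 0.22 in 0P vs 0ND.

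Of 11 tested genes bound and driven by HNF4 in the gut, 7 fell and 1 rose in 8P vs 8ND, and 6 fell in 0P vs 0ND. Called in either direction were 28.2% and 31.6% of all tested genes, with 14.3% and 15.7% lower. Medians of the list were -0.72 and -0.90 on the log2 scale. Fabp2, the intestinal fatty acid carrier, had 3.26 ± 3.63 CPM in 8P and 37.1 ± 16.8 CPM in 8ND, and 2.25 ± 1.08 CPM in 0P and 28.4 ± 17.0 CPM in 0ND. It fell by 3.52 ± 0.56 and 3.64 ± 0.65 (adjusted p = 0.000252 and 0.000431). Fits without single libraries gave -4.47 (without 8P 5) to -3.29 for the first. Cldn15, a claudin that forms sodium pores, fell by 1.96 ± 0.34 and 2.27 ± 0.39. Cpt1a and Acaa2, enzymes of fatty acid oxidation, fell by 0.72 ± 0.14 and 0.91 ± 0.16 in 8P vs 8ND and by 0.95 ± 0.16 and 0.90 ± 0.18 in 0P vs 0ND. The gene that rose in 8P vs 8ND was Mttp, which loads lipid onto apolipoprotein B (1.09 ± 0.23, adjusted p = 0.00163).

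Of 13 tested brush border genes, 9 fell in 8P vs 8ND and 10 in 0P vs 0ND, with 0 higher. They included the links and anchors between microvilli. Among all tested genes, 14.3% fell in 8P vs 8ND and 15.7% in 0P vs 0ND. Cdhr2, an adhesion protein of microvillar tips, had 39.7 ± 4.39 CPM in 8P and 130 ± 29.1 CPM in 8ND, and 41.0 ± 20.2 CPM in 0P and 157 ± 18.9 CPM in 0ND. It fell by 1.71 ± 0.22 and 1.94 ± 0.25 on the log2 scale (adjusted p = 2.38e-05 and 1.31e-05). Its partner Anks4b fell by 1.29 ± 0.17 in 8P vs 8ND and fell by 1.64 ± 0.19 in 0P vs 0ND. Another partner, Ush1c, fell by 1.04 ± 0.14 and 1.01 ± 0.16. Cdhr5 fell by 1.49 ± 0.20 in 8P vs 8ND and by 1.60 ± 0.23 in 0P vs 0ND. Myo1d, a membrane myosin, fell by 0.93 ± 0.12 in 8P vs 8ND and by 0.85 ± 0.13 in 0P vs 0ND.

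**Figure D4:**
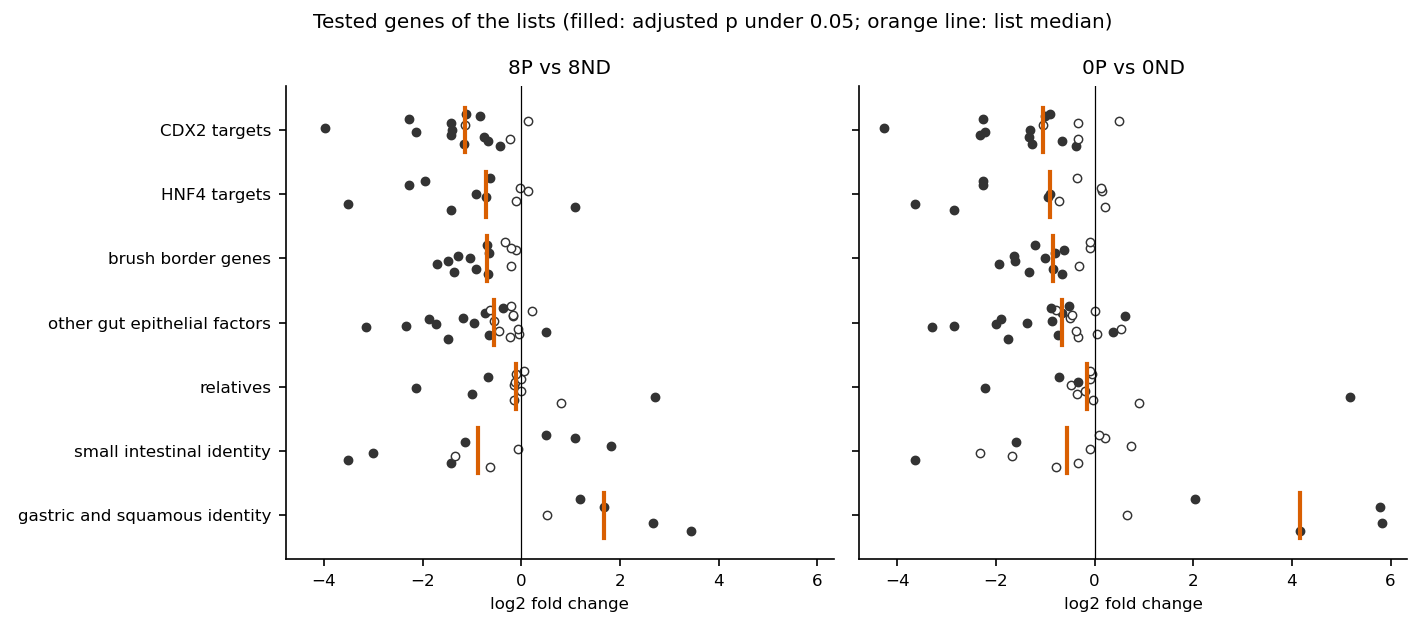
Log2 fold changes of the tested genes of 7 lists in 8P vs 8ND (left) and 0P vs 0ND (right). Each point is a gene, filled where its adjusted p was below 0.05, and orange lines are list medians. Of the CDX2 targets 12 and 11 fell, and of the 5 tested gastric and squamous genes 4 rose on each diet. Among all tested genes, 14.3% and 15.7% fell and 13.9% and 15.9% rose.

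Other transcription factors of gut epithelium moved with them. Of 21 tested, 10 fell and 1 rose in 8P vs 8ND, and 11 fell and 2 rose in 0P vs 0ND. Among all tested genes, 28.2% and 31.6% were called in either direction, and 14.3% and 15.7% fell. Nr5a2, a nuclear receptor of crypts, had 5.67 ± 2.52 CPM in 8P and 49.99 ± 6.48 CPM in 8ND, and 7.18 ± 5.30 CPM in 0P and 70.2 ± 12.5 CPM in 0ND. The log2 fold changes were -3.16 ± 0.39 and -3.29 ± 0.43 (adjusted p = 2.45e-05 and 2.52e-05). Without single libraries the second ran from -3.94 (without 0P 1) to -2.99. Vdr, the vitamin D receptor, fell by 2.34 ± 0.33 and 2.85 ± 0.37. Ppara, a fatty acid receptor, fell by 1.87 ± 0.27 in 8P vs 8ND and by 1.90 ± 0.30 in 0P vs 0ND. Nr1h4, the bile acid receptor, fell by 1.72 ± 0.26 in 8P vs 8ND and by 1.99 ± 0.29 in 0P vs 0ND.

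Among 17 relatives of the 8 genes, 12 were tested, and 3 fell and 1 rose on each diet, a share of calls near the 28.2% and 31.6% of all tested genes in 8P vs 8ND and 0P vs 0ND. Gata5, the relative of Gata6, rose, with 16.0, 17.6, 6.74, 9.36 and 3.99 CPM in 8P, against 3.87, 1.82, 0.107, 1.60 and 1.03 CPM in 8ND. It had 12.5, 22.2, 15.4 and 13.4 CPM in 0P, against 0.510, 0.176, 0.592 and 0.325 CPM in 0ND. P libraries lay above ND libraries on both diets. The log2 fold change was 2.70 ± 0.51 in 8P vs 8ND (adjusted p = 0.000698) and 5.18 ± 0.66 in 0P vs 0ND (adjusted p = 1.69e-05). Elf4, an ETS factor related to Elf3, fell by 0.68 ± 0.12 and 0.71 ± 0.14. Klf2 fell by 1.00 ± 0.26 in 8P vs 8ND, and Elf1 by 0.34 ± 0.10 in 0P vs 0ND, where the call was lost without 0P 3 (adjusted p = 0.0796) and with no filter on low counts (0.0999). Onecut1 and Onecut3, the close relatives of Onecut2, were too low to test, with 2 and 30 reads in all of 8P, 4 and 16 in 8ND, 0 and 21 in 0P, and 3 and 10 in 0ND.

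Of 18 listed genes of stomach and squamous epithelium only 5 passed the filter on low counts, and 4 of these rose on each diet. Of all tested genes, 13.9% rose in 8P vs 8ND and 15.9% in 0P vs 0ND. Since a gene that is high in P alone could pass the filter on low counts, the count of 4 describes the genes tested. Among those left out, Tff2, Gkn2, Muc5ac, Pgc, Gkn1 and Tff1 had 0, 1, 5, 9, 15 and 18 reads in all of 8P. In 0P they had 3, 1, 4, 3, 16 and 9. Aqp5 and Gkn3 had the most in 8P, at 82 and 75. Muc6, a gland mucin of the stomach, had 121, 56.9, 18.2, 169.6 and 39.3 CPM in 8P, against 26.7, 14.7, 1.503, 8.54 and 12.3 CPM in 8ND. It had 54.7, 82.0, 140.9 and 79.7 CPM in 0P, against 2.61, 0.705, 1.66 and 0.650 CPM in 0ND. The groups overlapped on 8 mg/kg and were apart on 0 mg/kg, with log2 fold changes of 2.66 ± 0.64 (adjusted p = 0.00565) and 5.83 ± 0.88 (adjusted p = 0.000135). Fits without single libraries gave 5.55 to 6.43 for the second, with 6.43 without 0ND 1.

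Sox2, a factor of foregut, reached 6.58, 4.57, 1.54, 12.95 and 12.5 CPM in 8P, against 0.553, 1.51, 0, 0.801 and 0.514 CPM in 8ND. It had 3.17, 0.539, 0.823 and 10.4 CPM in 0P, against 0.255, 0.529, 0.118 and 0 CPM in 0ND. Its level in 0P thus rested mostly on 0P 1 and 0P 4. The log2 fold change was 3.44 ± 0.85 in 8P vs 8ND (adjusted p = 0.00604) and 4.15 ± 1.12 in 0P vs 0ND (adjusted p = 0.00901). Without single libraries the first ran from 3.095 to 4.17, with 4.17 without 8ND 2. The second was 2.82 without 0P 4, where its call was lost (adjusted p = 0.056), as it was in limma-voom (0.144). The keratin Krt7 rose by 1.19 ± 0.20 and 2.03 ± 0.23, and Krt14 by 1.67 ± 0.51 and 5.79 ± 0.75. The Krt14 call in 8P vs 8ND was lost with no filter on low counts (adjusted p = 0.0624) and in a fit of the 2 groups alone (0.0502). Without single libraries its value ran from 1.40 to 2.33 (without 8ND 1), with adjusted p up to 0.0499.

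Of 10 tested genes of the small intestine, 3 rose and 4 fell in 8P vs 8ND, and 2 fell in 0P vs 0ND, where 31.6% of all tested genes were called (28.2% in 8P vs 8ND). Slc5a1, the sodium and glucose transporter, fell by 1.14 ± 0.19 and 1.58 ± 0.21, with Fabp2 as above. Slc10a2, the ileal bile acid transporter, rose by 1.83 ± 0.48 in 8P vs 8ND (adjusted p = 0.00967), a call lost with the stromal covariate (0.101). In 8ND vs 0ND and 8P vs 0P, 0 genes of any of these 7 lists were called. The smallest p in 8ND vs 0ND belonged to Krt14 (3.31 ± 0.77, adjusted p = 0.106), Tcf7l2 (-0.47 ± 0.14, 0.185), Anks4b (-0.62 ± 0.17, 0.165), Abcb1a (-0.96 ± 0.26, 0.157), Gata5 (1.91 ± 0.71, 0.347), Slc5a1 (-0.47 ± 0.20, 0.424) and Acaa2 (-0.36 ± 0.17, 0.497) of their lists. In 8P vs 0P it belonged to Slc26a3 (-1.27 ± 0.52, 0.468), Ush1c (-0.39 ± 0.15, 0.465), Acaa2 (-0.38 ± 0.17, 0.487), Mttp (0.51 ± 0.24, 0.488), Pparg (0.52 ± 0.29, 0.535), Klf6 (0.33 ± 0.20, 0.56) and Krt14 (-0.81 ± 0.49, 0.564).

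For each gene called, the closest profiles over the 18 libraries were sought among 11633 genes, by the root mean square difference of log2 CPM after each gene's own mean was taken off. Libraries share depth and tissue makeup, so this likeness is a description. The nearest to Cdx1 were St6galnac6, Golph3l and B3galt5, at 0.176 to 0.205 beside an SD of Cdx1 itself of 1.00. St6galnac6, a sialyltransferase, averaged 65.3 CPM in 8P, 264 in 8ND, 77.1 in 0P and 251 in 0ND. The nearest to Cdx2 were Cldn15, Muc4 and Mgat4c, at 0.353 to 0.463 beside an SD of 1.31. Cldn15 averaged 11.3 CPM in 8P, 43.8 in 8ND, 6.49 in 0P and 31.4 in 0ND, and its own differences with diet did not pass the test (adjusted p = 0.488 in 8P vs 0P and 0.728 in 8ND vs 0ND).

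Hnf4a ran closest to Shroom3, an actin-binding protein of cell shape, at 0.152, and then to the bacterial sensors Naip2 and Naip1. Hnf4g ran closest to Sqor, which oxidizes sulfide in mitochondria, at 0.143, followed by Ipmk and Tmem45b. Gata6 was nearest to Kat2b, an acetyltransferase, at 0.111, and then Marf1 and Arhgef5, beside an SD of Gata6 itself of 0.242. The gene nearest to Onecut2 was Lgr6, an R-spondin receptor, at 0.909 beside an SD of 3.19, followed by Adcy8. Lgr6 averaged 53.2 CPM in 8P and 6.44 in 8ND, and 39.6 CPM in 0P and 1.16 in 0ND.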

How the data were processed

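RNA was taken from LMD epithelium of formalin-fixed, paraffin-embedded colons, and stranded libraries for low input were prepared from 40 ng each. For every one of the 18 libraries the authors deposited raw counts of reads for each gene name. According to the labels and methods, Bowtie placed the reads on mm10 and HTSeq counted them; for neither is a version stated in the sources used here, nor is the strand setting. The 5 summary lines naming no gene were kept out of totals and tests. Reads on no gene made up 22.0 to 40.7% of a library, and 40.1 to 62.2% aligned to no unique place. Totals on genes were 3500947 to 17048524. No molecular identifiers are mentioned, so counts may include PCR copies. No 2 libraries of a group were alike within counting error (32 pairs, chi-square per gene 10.4 or more), so all were kept. Counting was against RefSeq genes by the study's account, yet 54512 of the gene names occur in GENCODE M21, whose positions and exon lengths were used.

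The tests used edgeR 4.0.16 in R 4.3.3 (filterByExpr with a minimum count of 10, TMM, a robust quasi-likelihood fit over all 18 libraries with group means). Benjamini-Hochberg adjustment ran over 20787 tested genes, with the threshold at 0.05. Standard errors are the absolute log2 fold change over the root of F. The square root of the common dispersion was 0.261. Ratios of paralogs were taken after adding 0.5 to each count and tested by exact two-sided permutation. The fit was tested on data simulated from its own estimates of spread, which cannot show how well it suits these libraries. DESeq2 (version 1.42.0 here; the study also used DESeq2), limma-voom (limma 3.58.1), other size factors, other count filters, a stromal covariate, a replicate block, fits of 2 groups alone and fits without libraries served as alternatives. 8ND 1 and 8ND 2 were left out together in 1 alternative because an earlier analysis of these data placed them nearest to P; that placement was not recomputed.

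The 8 genes and the lists were chosen with earlier results of these data known. All 8 were named. From each list, and in each comparison, up to 4 called genes with the smallest p were named, or the gene with the smallest p where none was called, and for each member called the 3 nearest profiles among genes with a mean of at least 5 CPM, leaving out unnamed gene models. Onecut1, Onecut3, Krt5, Trp63, Tspan8, Krt18, Epcam, Cdh1 and the gene models overlapping members were named outside this rule, after their values were seen. So were Jchain, Itgam, Cdh17, Vil1 and the stomach and squamous genes that did not pass the filter on low counts. Promoters came from RefSeq (GRCm38.p6), matched by symbol, and 4 promoters of 3 genes are shown. A few genes that this rule names are not reported here.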

Additional observations from a re-analysis of the deposited data

Results flagged for a closer look

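In 32 sets of values, each of the 8 genes in each of the 4 groups, the highest and lowest libraries were compared with the rest by Dixon's criterion. Klf5 in 8ND stood out. Library 8ND 1 had 896 CPM and the nearest other 8ND library had 672 CPM, so that the gap was 0.728 of the whole range of the group. Chance gives such a gap in about 1 of 20 groups.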

How the results depend on the processing

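The calls of Cdx1, Cdx2, Hnf4a, Hnf4g and Onecut2 in both P vs ND comparisons were kept under every alternative, and with diet none of the 8 genes was called under any. Leaving out each library in turn gave 5 to 7 genes of the 8 in 0P vs 0ND and 5 in every such fit of 8P vs 8ND. With diet, the number of all genes called was unstable. In 8ND vs 0ND it was 10, and became 41 with no filter, 0 without 8ND 1 and 8ND 2, 3 with the replicate block, 3 in limma-voom and 316 in DESeq2, and 2 to 157 without single libraries (157 without 8ND 3). DESeq2 then also called 1 CDX2 target and 2 stomach and squamous genes, and the fit without 8ND 3 called Krt14 (adjusted p = 0.0332). In 8P vs 0P it was 0, and became 2 with DESeq2 size factors, 2 with no filter, 3 without 8ND 1 and 8ND 2, 20 in DESeq2 and 0 to 5 without single libraries. In the interaction it was 0, and became 1 with no filter, 82 in DESeq2 and 0 to 26 without single libraries. Of the stomach and squamous list, 7 were called in 8P vs 8ND with no filter.

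Small differences of uncalled genes changed sign. In 8P vs 0P, Hnf4a was -0.0070 with DESeq2 size factors, -0.0071 in DESeq2 and -0.14 with the stromal covariate. Cdx1 was -0.084 with that covariate and -0.0057 in limma-voom, Klf5 -0.12 with the covariate, and Onecut2 -0.48 and -0.052. In 8P vs 8ND, Gata6 was 0.0076 with no filter and 0.0027 without 8ND 1 and 8ND 2, where Klf5 was 0.033 and Elf3 0.053. In 8ND vs 0ND, Cdx1 was 0.085 without both. In the interaction, Cdx1 was -0.034 with the covariate and -0.059 without both, and Cdx2 -0.0070 with the covariate. Without single libraries the ranges were -0.18 to 0.093 for Cdx1 and -0.14 to 0.0016 for Gata6 in 8ND vs 0ND, then -0.15 to 0.24 for Cdx1, -0.13 to 0.24 for Hnf4a, -0.35 to 0.10 for Hnf4g, -0.039 to 0.16 for Klf5 and -0.25 to 0.22 for Onecut2 in 8P vs 0P, then -0.21 to 0.0021 for Elf3, -0.10 to 0.015 for Gata6 and -0.20 to 0.011 for Klf5 in 8P vs 8ND, then -0.11 to 0.29 for Cdx1, -0.21 to 0.71 for Cdx2 and -0.061 to 0.39 for Hnf4g in the interaction.

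The differences of ratios kept their direction, with ranges without single libraries of -1.002 to -0.61 (exact permutation p 0.0179 to 0.143) for Cdx1 over Cdx2 in 8ND vs 0ND, 0.20 to 0.31 (exact permutation p 0.0286 to 0.0857) for Hnf4a over Hnf4g in 0P vs 0ND and 0.21 to 0.41 (exact permutation p 0.0159 to 0.222) for Hnf4a over Hnf4g in 8P vs 8ND. Same-numbered P and ND libraries correlated in their deviations from group means by -0.0787 to 0.273, and not every library matched its own number best, so the numbers were not taken as pairs. With the replicate block, 5999 genes were called in 0P vs 0ND and 5328 in 8P vs 8ND (6562 and 5869 without), no call of the 8 genes changed, and Slc10a2 in 8P vs 8ND lost its call (adjusted p = 0.0639). Depth limits the low genes: Onecut2 in ND and the stomach genes rest on few reads.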

Other observations

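A pair of squamous markers chosen after their values were seen stood high in a single dysplasia library. Krt5, a keratin of the basal layer of squamous epithelium, had 351 reads (21.8 CPM) in 0P 4 and at most 6 reads in any other library. Trp63, the p63 factor of the same layer, had 92 reads (5.72 CPM) in 0P 4 and at most 5 elsewhere. Krt14, another keratin of that layer, was high in other P libraries too, with 7.89 to 19.9 CPM in 8P and 1.03 to 11.5 in 8ND, and 13.45 to 33.2 CPM in 0P and 0.108 to 0.947 in 0ND. In 0P 4, Onecut2 was at 244 CPM, Cdx2 at 3.80 CPM and Sox2 at 10.4 CPM. Without 0P 4, the log2 fold change in 0P vs 0ND was -1.76 for Cdx1 (adjusted p = 0.000138 in edgeR), -1.82 for Cdx2 (0.00711) and 6.63 for Onecut2 (8.92e-05).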
